A study of Homo sapiens with 6 samples.

Results

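The small CTD phosphatases are a family of nuclear enzymes that remove phosphate from serines in the repeated C-terminal tail (CTD) of RNA polymerase II. The 4 genes described here, CTDSPL, CTDSP1, CTDSP2 and CTDSPL2, were measured among 20026 genes by RNA-seq in HepG2, a human liver cancer cell line. CTDSPL was chosen by its counts in these same 6 libraries, which were far lower in both knockout groups than in the control group, and the other 3 genes were taken with it as its relatives. The levels of the 4 genes against the control are therefore a description, with no test.

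The study asked what the microRNAs miR-23a and miR-27a, which are cut from 1 shared transcript together with miR-24, do in liver cancer cells. It compared 3 groups of HepG2 cells with 2 libraries each: scramble control cells (Scr), labelled as wild type and made, per the study's methods, with the Cas9 vector carrying no guide; miR-23a knockout cells (miR-23a KO); and miR-27a knockout cells (miR-27a KO). The knockout lines were made with CRISPR/Cas9 and grown from sorted single cells, so a difference between a clone and the control can also be a property of that clone. Nothing in the labels says whether the 2 libraries of a group came from separate clones or cultures, and p-values then measure only the spread between these libraries, which may be technical. Since the 3 microRNAs share a transcript, an edit meant for 1 of them may touch the others. The edited microRNAs themselves and the mature miR-26 family were not analysed here.

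The libraries held 14405247 to 16515266 counts each, if the deposited values, in columns named FPKM, are read to be expected counts, which they were throughout. They did not have the same quality of replication, and this touches every result. Among genes with at least 40 counts in the pair, 47.7% lay more than 2-fold apart between the 2 miR-23a KO libraries, against 6.55% between the Scr libraries and 1.29% between the miR-27a KO libraries. The difference between the 2 miR-23a KO libraries followed base composition: in the fifth of genes with the lowest GC content the median ratio of replicate 1 to replicate 2 was 0.446, and in the fifth with the highest GC content it was 2.3. In the Scr pair the same medians were 0.751 and 1.12, and in the miR-27a KO pair 0.992 and 1.02. All 11 hepatocyte and HepG2 markers reached at least 1 CPM (expected counts per 1 M counts of the library, scaled with TMM factors) in every library, with summed levels of 25800 to 37100 CPM. SERPINA1 was the most abundant of them on average, at 4730 to 12800 CPM. Single markers differed between the groups. AFP, the fetal counterpart of albumin, held 2550 and 3890 CPM in Scr, 3820 and 6640 with miR-23a KO but 184 and 191 with miR-27a KO, and ALB, albumin, 10200 and 15000, 7930 and 14900, and 2090 and 2150. TF, transferrin, went the other way, with 3260 and 2250 CPM in Scr, 2380 and 2110 with miR-23a KO, and 6550 and 6740 with miR-27a KO. Of the leukocyte markers, CD68 held 72 to 159 CPM, while PTPRC and CD3E stayed under 0.5 CPM in every library. The endothelial markers summed to 3.36 to 6.97 CPM, mostly PECAM1, and the fibroblast markers to 5.11 to 30 CPM, nearly all PDGFRB, with COL1A1 at 0 in 3 libraries.

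Small CTD phosphatases are best known for silencing. In non-neuronal cells the repressor REST brings them to neuronal genes, where they keep polymerase from becoming productive. The same enzymes act on regulators outside the polymerase: they remove phosphate from SMAD proteins, from the retinoblastoma protein and its relatives, and from the transcription factors SNAI1 and MYC. CTDSPL, also called RBSP3, is a candidate tumour suppressor of the short arm of chromosome 3 known for its action on the retinoblastoma protein. CTDSP1 and CTDSP2 are its close relatives, and CTDSPL2 is a more distant member that acts on SMAD proteins.

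A feature of 3 of the 4 genes is that an intron of each carries a hairpin of the miR-26 family. In GENCODE 29 (GRCh38), CTDSPL (gene 10217) lies on the plus strand of chr3:37861960-37984469, and the RefSeq hairpin MIR26A1 at chr3:37969404-37969480 falls in intron 4 of 6. CTDSP1 (gene 58190) lies on the plus strand of chr2:218398256-218405941 with MIR26B at chr2:218402646-218402722 in intron 4 of 6. CTDSP2 (gene 10106) lies on the minus strand of chr12:57819927-57846739 with MIR26A2 at chr12:57824609-57824692 in intron 5 of 7. No hairpin overlapped an exon of its host, and each lay on the host's strand. CTDSPL2 (gene 51496), on the plus strand of chr15:44427234-44529038, was not listed as a host. The genome build of the authors' alignment is not given in the sources used here, so these positions describe the genes and were not read from the deposited values.

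The mature miRNAs are shown because the seed, bases 2 to 8 in capitals, decides which transcripts a miRNA pairs with. The 2 miR-26 forms share 1 seed, and the seeds of the 2 edited miRNAs are different from it and from each other. All 4 were matched by name in the RefSeq table (GRCh38.p14).
hsa-miR-26a-5p: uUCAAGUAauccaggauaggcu
hsa-miR-26b-5p: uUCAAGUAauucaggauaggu
hsa-miR-23a-3p: aUCACAUUgccagggauuucc
hsa-miR-27a-3p: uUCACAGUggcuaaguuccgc
Counted from the 5′ end over the positions both have, miR-26b-5p differed from miR-26a-5p by C11U and C21U, outside the seed.

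The longest annotated 3′-UTR of each member was searched for 7-base matches to these seeds (TACTTGA for miR-26, AATGTGA for miR-23a-3p and ACTGTGA for miR-27a-3p, on the transcript strand only). The sites found are shown with 10 bases on either side, the match in capitals; positions count from the first base of the UTR.
CTDSPL, miR-23a-3p, bases 3471 to 3477: tggacatttgAATGTGAtaaacaatcc
CTDSPL, miR-27a-3p, bases 2222 to 2228: agttcctgaaACTGTGAgcaccactgc
CTDSP2, miR-27a-3p, bases 225 to 231: tgtgtgtttgACTGTGAgagagtgtgt
CTDSP2, miR-27a-3p, bases 3499 to 3505: tctgcttcccACTGTGActgggctatg
CTDSPL2, miR-23a-3p, bases 4269 to 4275: gttttagctaAATGTGAcactggtttg
No match of these letters was found in the 3′-UTR of CTDSP1 (1516 bases), and none to the miR-26 seed in the 3′-UTR of any of the 4 genes. Such matches are common: among 15883 genes with an annotated 3′-UTR, 19.4% held a miR-23a-3p match, 16.7% a miR-27a-3p match and 12.5% a miR-26 match. A match of letters is a description and no evidence of binding.

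CTDSPL was present in the control and nearly absent in every knockout library. The Scr libraries held 298 and 299 counts (20.4 and 20.1 CPM), the miR-23a KO libraries 1 and 3 counts (0.0764 and 0.165 CPM), and the miR-27a KO libraries 1 and 1 count (0.0606 and 0.0601 CPM). The control libraries were close to each other and far above all 4 knockout libraries. Over the summed counts, scaled for library size, CTDSPL stood at 0.632% of its Scr level in miR-23a KO (95% exact Clopper-Pearson interval 0.172% to 1.63%) and at 0.298% in miR-27a KO (0.036% to 1.08%). These intervals cover counting error only. With 4 counts in 1 knockout group and 2 in the other, a difference between the knockout groups was not detectable at this depth. CTDSPL carries a match for each edited miRNA in its 3′-UTR, and its transcript was low in both groups.

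A complete separation of 2 libraries from 2 is frequent in these data and says little by itself. Both miR-23a KO libraries lay below both Scr libraries for 1884 of 13786 genes tested (13.7%) and above them for 1366 (9.91%). In miR-27a KO 4291 of 13820 genes lay below (31.0%) and 4617 above (33.4%). The size of the difference was less common. In all, 5 of 14163 genes that passed the filter on low counts (0.0353%) were at least 10-fold lower in every knockout library than in each Scr library, and CTDSPL was 1 of them by its choice. Without the filter 64 genes met the rule, and leaving out 1 library gave 8 (without Scr replicate 1 or without miR-27a KO replicate 1) to 17 (without Scr replicate 2 or without either miR-23a KO library); CTDSPL was among them each time.

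CTDSP1 is the most abundant of the 4 transcripts. Its libraries held 3458.69 and 4142.7 counts in Scr (237 and 278 CPM), 9759.63 and 3708.32 with miR-23a KO (746 and 203 CPM), and 3917.59 and 3765.06 with miR-27a KO (237 and 226 CPM). A single library, miR-23a KO replicate 1, stood far above the other 5, which lay between 203 and 278 CPM, and the groups overlapped. The fitted log2 fold change against Scr was 0.88 (SE 0.62) with miR-23a KO and -0.17 (SE 0.1) with miR-27a KO. Without miR-23a KO replicate 1 the first value was -0.34, on the other side of 0. CTDSP1 is also the member with the highest GC content, 61.7%, within the fifth of genes that was higher in that library, and with counts corrected for GC content and length the 2 values were 0.58 and 0.07. The sign of the miR-27a KO value thus changed with the correction.

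CTDSP2 varied most within the control. Scr held 2254.06 and 967.98 counts (154 and 65 CPM), miR-23a KO 1077.3 and 2314.42 (82.3 and 127 CPM), and miR-27a KO 2810.56 and 2935.69 (170 and 177 CPM). Both miR-27a KO libraries were above both Scr libraries, while the miR-23a KO libraries lay between them. The log2 fold change against Scr was -0.02 (SE 0.55) with miR-23a KO and 0.64 (SE 0.39) with miR-27a KO. Leaving out Scr replicate 1 gave 0.69 and 1.41, and leaving out Scr replicate 2 gave -0.52 and 0.15, so the size of both values and the sign of the first depended on the control library. The first was also 0.21 with miR-23a KO replicate 1 left out and -0.44 with replicate 2 left out.

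CTDSPL2 is the least abundant of the relatives. Its counts were 127.67 and 151.71 in Scr (8.75 and 10.2 CPM), 150.04 and 464.16 with miR-23a KO (11.5 and 25.5 CPM), and 230.17 and 224.52 with miR-27a KO (13.9 and 13.5 CPM). All 4 knockout libraries lay above both control libraries. The log2 fold change was 1.02 (SE 0.6) with miR-23a KO and 0.52 (SE 0.18) with miR-27a KO. Without miR-23a KO replicate 2 the first value was 0.25. CTDSPL2 has the lowest GC content of the 4, 36.2%, within the fifth of genes that was lower in miR-23a KO replicate 1. Corrected for GC content and length the values were 0.33 and 0.27. EIF3J-DT overlaps CTDSPL2 on the other strand but held at most 1.34 counts in any library.

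**Figure D1:**
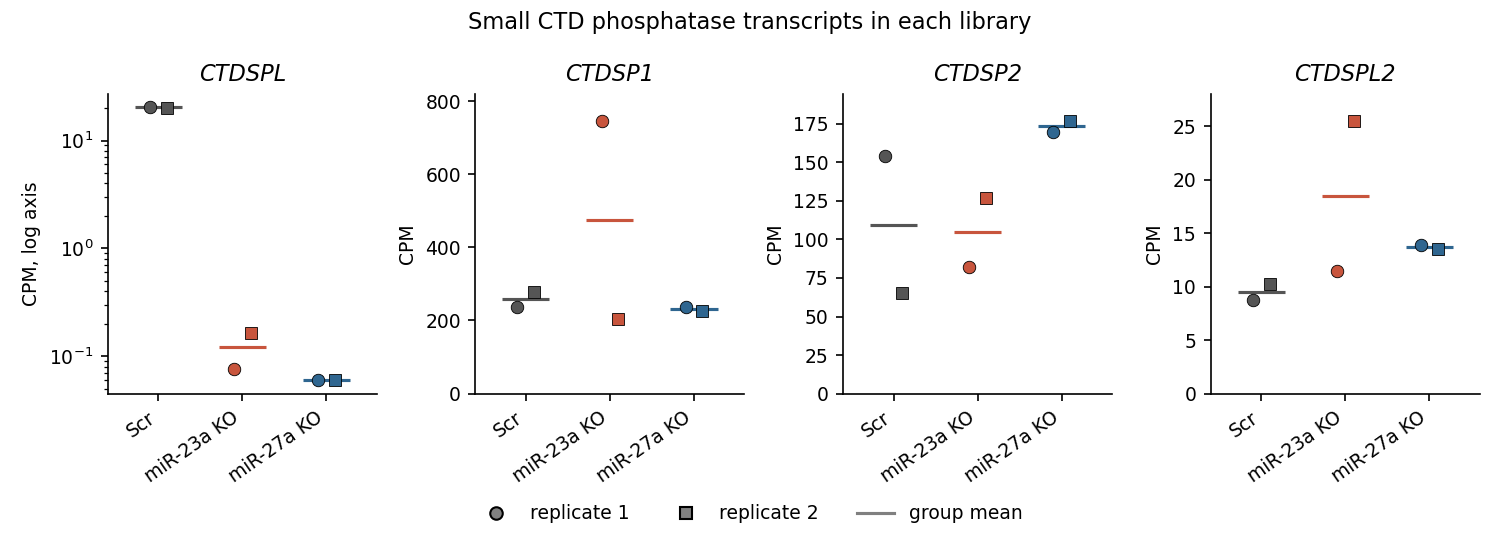
Level of each of the 4 genes in each library, in CPM; circles are replicate 1, squares replicate 2, and lines the mean of the 2 libraries of a group. The CTDSPL panel has a log axis and shows 20.4 and 20.1 CPM in Scr against at most 0.165 CPM in the knockout libraries; the other panels start at 0, and the high CTDSP1 point is miR-23a KO replicate 1 at 746 CPM.

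The knockout groups were compared with each other for the 3 relatives, which were taken with CTDSPL with earlier results of these data known. Of 13841 genes tested with edgeR's quasi-likelihood test, 0 (0%) were called higher and 0 (0%) lower in miR-23a KO than in miR-27a KO at a fold change over 1.5 and a Benjamini-Hochberg adjusted p under 0.05; 645 and 562 had an unadjusted p under 0.05, and DESeq2 called 259 and 218. The edgeR counts were 2772 and 2135 without miR-23a KO replicate 1, 3584 and 3719 without its replicate 2, 27 and 49 without miR-27a KO replicate 1, and 25 and 47 without its replicate 2. An edgeR adjusted p is the Benjamini-Hochberg adjusted p of this quasi-likelihood test throughout. CTDSP1 had a log2 fold change of 1.03 (SE 0.68; edgeR adjusted p = 0.789), CTDSP2 one of -0.74 (SE 0.37; edgeR adjusted p = 0.703) and CTDSPL2 one of 0.41 (SE 0.49; edgeR adjusted p = 0.872). None of the 3 passed the test. Both miR-23a KO libraries were below both miR-27a KO libraries for CTDSP2, as for 2755 genes in all (19.9%; 2726 or 19.7% lay above). The 2 miR-23a KO libraries decided these values: without replicate 1 the log2 fold change of CTDSP1 was -0.22 (edgeR adjusted p = 0.00414), and without replicate 2 it was 1.68 (edgeR adjusted p = 5.12e-10), with the lone library assumed to vary like the miR-27a KO pair. CTDSP2 kept its sign under all 11 alternatives, at -0.49 without replicate 1 (edgeR adjusted p = 0.00017) and -1.08 without replicate 2 (edgeR adjusted p = 8.59e-08). CTDSPL2 had 0.86 without replicate 1 (edgeR adjusted p = 0.000808) and -0.26 without replicate 2 (edgeR adjusted p = 0.137).

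**Figure D2:**
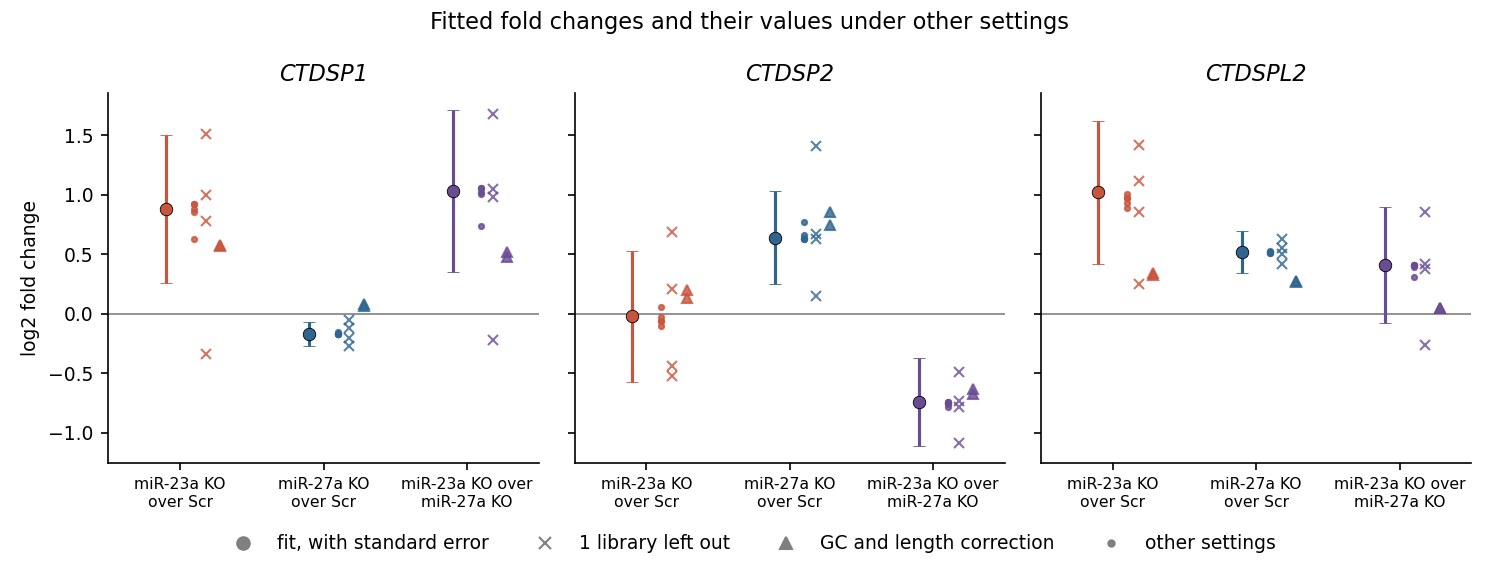
Log2 fold change (y axis) of CTDSP1, CTDSP2 and CTDSPL2 in the 3 comparisons; circles with bars are the fitted values with their standard error, crosses the fits with 1 library left out, triangles the fits corrected for GC content and length, and dots the remaining settings. The crosses of CTDSP1 in miR-23a KO over Scr reach from -0.34 to 1.51, and those of CTDSP2 in miR-27a KO over Scr from 0.15 to 1.41.

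Levels can be compared between genes only per transcript length, here CPM per kb of the longest annotated coding transcript. On that scale CTDSP1 had a mean of 97.6 ± 11.2 (SD, n = 2) in Scr, CTDSP2 22.9 ± 13.1, CTDSPL 4.36 ± 0.0454 and CTDSPL2 1.39 ± 0.151. The order CTDSP1, CTDSP2, CTDSPL, CTDSPL2 held in both control libraries, with no overlap between neighbours in the order. In the control CTDSPL made up 3.45% and 3.47% of the summed level of the 4 genes. The sum of the 4 genes was 127 and 125 in Scr, 127 and 125 in miR-27a KO, and 302 and 107 in miR-23a KO, where CTDSP1 was high in replicate 1. In miR-27a KO the mean of CTDSP1 was 87.9 ± 2.92 and that of CTDSP2 36.2 ± 0.929. CTDSPL2 was above CTDSPL in all 4 knockout libraries, the reverse of their order in Scr.

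**Figure D3:**
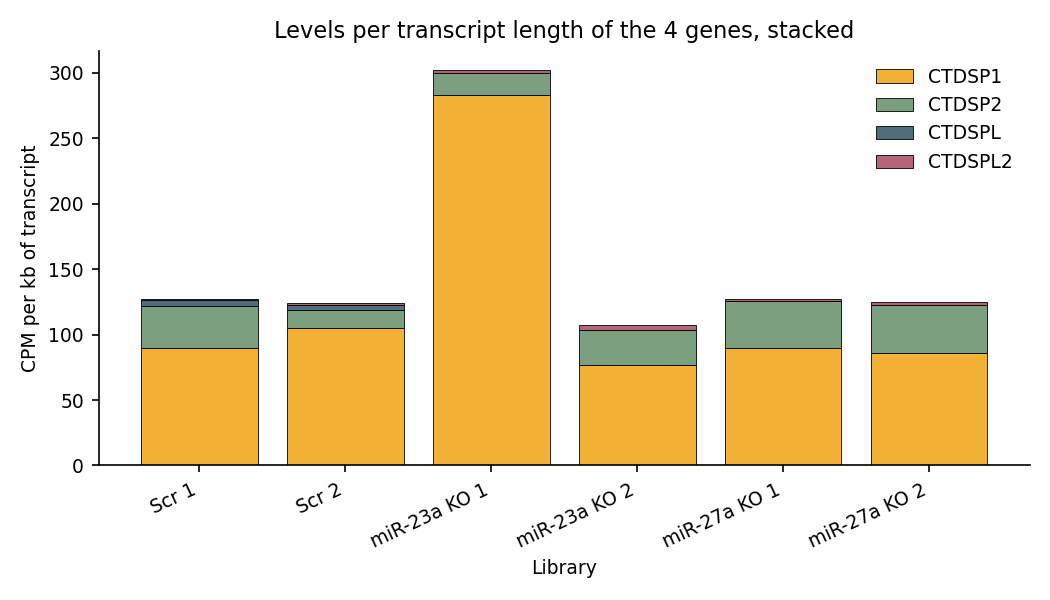
Stacked levels per transcript length (CPM per kb, y axis from 0) of the 4 genes in each of the 6 libraries. CTDSP1 makes up most of every bar, CTDSPL is the thin layer seen in the 2 Scr bars, and the tall bar of 302 is miR-23a KO replicate 1.

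The genes around CTDSPL were described next. The 10 nearest listed genes, 5 on each side, included 6 that were tested with miR-23a KO and 8 with miR-27a KO, and edgeR called 0 of them in either comparison, where it called 0% of all genes in miR-23a KO and 3.52% higher and 6.74% lower in miR-27a KO. ACAA1, a peroxisomal thiolase of fatty acid oxidation, held 213 and 261 CPM in Scr, 458 and 188 with miR-23a KO and 214 and 220 with miR-27a KO. MYD88, the adaptor of Toll-like receptors, held 92.5 and 115 CPM in Scr and 75.7 to 138 in the knockout libraries. PLCD1, a phospholipase C, had a log2 fold change of -0.31 with miR-23a KO and 0.74 with miR-27a KO, with both miR-27a KO libraries above Scr. LRRFIP2, a regulator of Toll-like receptor signalling, held 14 and 16.7 CPM in Scr and 15.1 to 23.9 in the knockout libraries, and GOLGA4, a Golgi tethering protein, 5.27 and 15.8 CPM in Scr and 7.27 to 20. VILL, a villin-like actin binder and the nearest gene after CTDSPL at 3.6 kb, C3orf35, of unknown role, and DLEC1, a ciliary protein and candidate tumour suppressor, were near 1 CPM or below in every library, with DLEC1 below both Scr libraries in each knockout library (0.889 and 0.739 CPM in Scr). ITGA9, an integrin chain, and its antisense transcript ITGA9-AS1, the nearest on the other side, held at most 0.47 CPM in any library and too few counts to be compared.

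Around CTDSP2 a neighbour ran opposite to it. TSFM, which encodes a mitochondrial translation elongation factor and ends 11.9 kb from CTDSP2, is singled out after its values were seen. It held 598.73 and 1574.32 counts in Scr, 1477.55 and 571.66 with miR-23a KO, and 623.46 and 586.69 with miR-27a KO. The 2 libraries with high TSFM, Scr replicate 2 and miR-23a KO replicate 1, were the 2 with low CTDSP2. The sum of both genes varied less than either: 195 and 171 CPM in Scr, 195 and 158 with miR-23a KO and 208 and 212 with miR-27a KO, of which CTDSP2 took 38.1% and 42.2% in those 2 libraries and 79% to 83.3% in the other 4. Whether reads were shared out differently between the 2 genes was not tested, and the spread of CTDSP2 between libraries should be read with these values. Of the neighbours of CTDSP1 and CTDSPL2, edgeR called 0 in either comparison with Scr (of all genes 0% in miR-23a KO, and 3.52% higher and 6.74% lower in miR-27a KO). Their log2 fold changes ran from -0.77 to 0.47 and from -3.02 to 1.27.

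**Figure D4:**
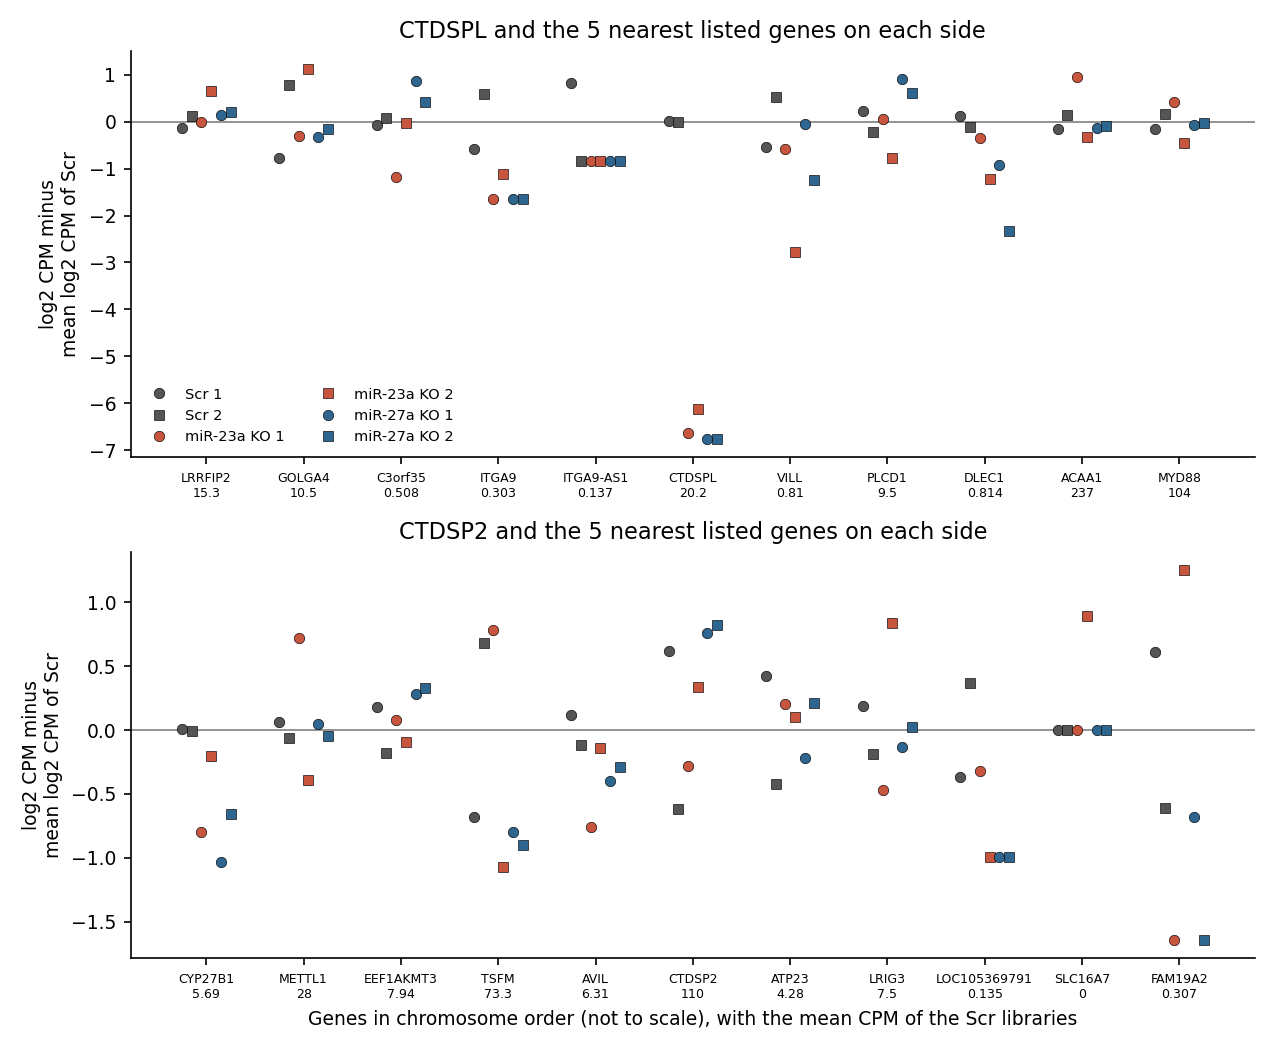
Log2 CPM of each library minus the mean log2 CPM of the Scr libraries (y axis) for CTDSPL and CTDSP2 and the 5 nearest listed genes on each side, in chromosome order and not to scale; the number under each name is its mean CPM in Scr. CTDSPL alone sits near -6 to -7 in the 4 knockout libraries of the upper panel, and TSFM mirrors CTDSP2 in the lower panel.

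Genes were then ranked by how closely their levels followed CTDSPL over the 6 libraries. The measure was the root mean square difference of log2 CPM (prior count 2) after setting each gene's Scr mean to 0, among 13072 genes with a mean of at least 1 CPM in Scr. RTL8C, a gene of the X chromosome derived from a retrotransposon Gag sequence, was the nearest with a difference of 0.66, and the next was at 2.05. RTL8C held 406.76 and 341.75 counts in Scr, 2 and 1 with miR-23a KO and 0 and 0 with miR-27a KO. Its near-identical copy RTL8A held 0 or 1 count in each library, so reads of the pair may not be told apart. By the ratio of the highest knockout level to the lowest Scr level, CTDSPL ranked 3 of 12657 genes with at least 1 CPM in both Scr libraries, at 0.82%. CTDSPL was chosen by these same counts, so a place near the top follows from its choice.

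The following genes of this ranking were much less abundant than CTDSPL or less evenly low. SPTSSB, a small subunit of the enzyme that starts sphingolipid synthesis, had 31 and 90 counts in Scr and 0 to 3 in the knockout libraries. RAB25, an epithelial Rab GTPase, had 198 and 180 against 24, 17, 9 and 2. LOC100507507, of unknown role, had 21.85 and 22.72 counts against 0 in all 4. ADAMTS9, a secreted metalloprotease, had 62 and 58 against 4 and 16 in miR-23a KO and 0 in both miR-27a KO libraries; PRIMA1, the membrane anchor of acetylcholinesterase, had 52.13 and 50 against 2 to 4. VPS35L, a subunit of the retriever complex, SOCS3, the cytokine signalling inhibitor, and CADM1, a cell adhesion molecule, followed at differences of 2.59 to 2.77. GRIP2, a scaffold of glutamate receptors, tied with CADM1 at 2.77 but had 0 counts in both miR-23a KO libraries and 5.26 and 127 in miR-27a KO. With 6 libraries and 1 dominant contrast the ranking mostly finds genes lost in both groups. The 5 genes at least 10-fold lower in every knockout library were RTL8C, CTDSPL, SPTSSB, PRIMA1 and LOC100507507.

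The other genes of the pathway were taken from lists named in the design. Against Scr, edgeR called 0 of 13786 genes higher (0%) and 0 lower (0%) in miR-23a KO, where 118 genes (0.856%) were higher and 214 (1.55%) lower at an unadjusted p under 0.05 and DESeq2 called 4 and 59. In miR-27a KO it called 487 of 13820 genes higher (3.52%) and 931 lower (6.74%), of which 2 and 2 also had an adjusted p under 0.001. The counts depended on single libraries: 338 higher and 256 lower in miR-23a KO without its replicate 1, and 1697 and 933 without its replicate 2; in miR-27a KO 1030 and 1240 without Scr replicate 1, 1908 and 1808 without Scr replicate 2, 111 and 313 without miR-27a KO replicate 1, and 82 and 252 without its replicate 2. In a single fit of all 6 libraries miR-27a KO had 3 and 61, and each call named below was then lost. Over all genes tested the log2 fold change had a median of 0.16 with miR-23a KO and 0.01 with miR-27a KO, and list medians are read against these; with the GC and length correction the first became 0.01.

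Phosphatases and cofactors that act on the polymerase tail beside the small family include CTDP1 and SSU72. Of the 11 genes of this list, all tested, 0 were called in miR-23a KO (0 at an unadjusted p under 0.05 by edgeR and 0 by DESeq2). In miR-27a KO CTDNEP1, the nuclear envelope phosphatase, had a log2 fold change of -0.46 (SE 0.08), SSU72 one of -0.17 (SE 0.09) and TIMM50, a mitochondrial import protein with a related domain, one of -0.39 (SE 0.11), none of them called. The list's medians were 0.05 and 0. Over the 11 alternatives they ran from -0.21 to 0.06 and from -0.06 to 0.03.

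The polymerase itself and the kinases that place the phosphates form the next list. Of 23 genes tested, edgeR called 0 in either group (in miR-23a KO 1 was higher at an unadjusted p under 0.05, and in miR-27a KO 4 were higher and 4 lower; DESeq2 called 0). Of all genes edgeR called 0% in miR-23a KO and 3.52% higher and 6.74% lower in miR-27a KO, and 1902 and 2545 of 13820 had an unadjusted p under 0.05 there. POLR2A, which carries the tail, held 179 and 181 CPM in Scr, 198 and 157 with miR-23a KO, and 184 and 182 with miR-27a KO, a log2 fold change of 0.01 (SE 0.43) and 0 (SE 0.07). The shared subunits POLR2E, POLR2L and the core subunit POLR2C had values of -0.42, -0.01 and -0.29 in miR-27a KO. The list's medians were 0.46 and 0.06. The first was 0.11 with the GC and length correction and 0.03 without miR-23a KO replicate 1. The second was 0.14 with the GC and length correction and 0.15 without Scr replicate 2.

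Proteins that small CTD phosphatases act on were measured as transcripts, which says nothing of their phosphorylation. Of 13 genes tested, 0 were called in miR-23a KO (0 at an unadjusted p under 0.05 by edgeR, 0 by DESeq2), and in miR-27a KO 1 was higher and 1 lower, where 3.52% of all genes were higher and 6.74% lower. RBL2, the retinoblastoma relative p130, held 28.1 and 31.7 CPM in Scr and 48 and 45.6 in miR-27a KO (log2 fold change 0.63, SE 0.11, edgeR adjusted p = 0.0285). SNAI1, a repressor of epithelial genes, held 15 and 8.46 CPM in Scr and 2.79 and 2.83 in miR-27a KO (log2 fold change -2.08, SE 0.35, edgeR adjusted p = 0.0255). In miR-23a KO, RBL2 stood at 14.1 and 57.3 CPM, on both sides of Scr, and SNAI1 at 14.1 and 13.4, within it. RBL2 was called under 4 of 11 alternatives and SNAI1 under 8; neither was called without miR-27a KO replicate 1 or replicate 2, nor RBL2 without Scr replicate 1.

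The other substrates did not pass the test. RB1, the retinoblastoma gene, had a log2 fold change of 0.79 (SE 0.73) with miR-23a KO and 0.32 (SE 0.34) with miR-27a KO, with overlapping groups, and RBL1, its relative p107, 1.02 (SE 0.69) and 0.59 (SE 0.22). MYC held 524 and 341 CPM in Scr and 252 to 301 in the 4 knockout libraries, all below Scr (log2 fold change -0.63, SE 0.47, and -0.56, SE 0.21). REST had 0.49 (SE 0.76) and 0.22 (SE 0.23), and AKT1 0.75 (SE 0.58) and 0.07 (SE 0.08). In miR-27a KO 5 of the 13 genes lay above both Scr libraries and 2 below, against 33.4% and 31.0% of all genes. The medians of the list, 0.32 and 0.12, lay above those of all genes, and the first was -0.55 without miR-23a KO replicate 2.

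REST and the corepressors it recruits gave no call in either group among 16 genes tested; at an unadjusted p under 0.05 edgeR had 0 in miR-23a KO and 3 higher and 3 lower in miR-27a KO, and DESeq2 called 1 higher in miR-27a KO. Of all genes 3.52% were called higher and 6.74% lower in miR-27a KO and 0% in miR-23a KO, and 1902 and 2545 of 13820 had an unadjusted p under 0.05 in miR-27a KO. KDM1A, a histone demethylase of the complex, had -0.14 (SE 0.46) and -0.06 (SE 0.13), SMARCA4, a chromatin remodeller, 0.05 and -0.32, HDAC1, a histone deacetylase, -0.22 and -0.07, and EHMT2, a histone methyltransferase, 0.10 and 0.11. The medians were 0.07 and 0.04. Over the 11 alternatives the first ran from -0.28, without miR-23a KO replicate 2, to 0.1. The second ran from -0.02 to 0.12, so neither kept its sign.

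Of the 30 listed neuronal genes that REST represses, 22 were in the file. Their Scr levels ran from 0 CPM in both libraries for GRIA2 to 447 and 322 CPM for NEFH. The log2 fold change of NEFH in miR-27a KO was 0.04 (SE 0.17). In miR-27a KO 15 were tested: 0 were called higher and 4 lower, and 11 lay below both Scr libraries with 0 above. Of all genes 6.74% were called lower, 31.0% lay below both Scr libraries and 33.4% above. Hepatocyte markers went both ways in these libraries. AFP (184 and 191 CPM) and ALB (2090 and 2150 CPM) lay below both Scr libraries. TF (6550 and 6740 CPM) and SERPINA1 (12800 and 12500 CPM) lay above both. SYP, a synaptic vesicle protein, held 11.7 and 10.6 CPM in Scr and 0.787 and 1.02 in miR-27a KO (log2 fold change -3.63, SE 0.28, edgeR adjusted p = 0.00546). STMN3, a stathmin that destabilises microtubules, held 63.1 and 41.7 CPM against 10.5 and 8.84 (-2.45, SE 0.25, edgeR adjusted p = 0.00858). CPLX1, a complexin of synaptic release, had -2.39 (SE 0.39, edgeR adjusted p = 0.0232), and TUBB3, the neuronal beta-tubulin, -1.14 (SE 0.12, edgeR adjusted p = 0.0098). These 4 calls were lost in the single fit of all 6 libraries, and that of CPLX1 also without miR-27a KO replicate 1. The list's median was -0.61, against 0.01 for all genes, and ran from -0.88 to -0.59 over the alternatives.

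In miR-23a KO, where edgeR called 0 of all 13786 genes, the list gave no call. Of 17 neuronal genes tested, 1 was above and 1 below both Scr libraries (9.91% and 13.7% of all genes), and the median was 0.01, with -0.51 without miR-23a KO replicate 1 and 0.23 without Scr replicate 1. SYP held 36.2 and 12.8 CPM, STMN3 84 and 26.7, CPLX1 11 and 4.83, and TUBB3 490 and 163. L1CAM, a neuronal adhesion molecule, was the 1 gene lower at an unadjusted p under 0.05 by edgeR and called by DESeq2, and is named after its values were seen: 183 and 47 counts in Scr, 4 and 2 with miR-23a KO and 135 and 133 with miR-27a KO. None of these genes was called between the knockout groups by edgeR (0 of 16; 3 higher and 1 lower at an unadjusted p under 0.05; 2 and 1 by DESeq2), so the difference between the groups did not pass the test.

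E2F factors are released when the retinoblastoma protein is phosphorylated, and their targets drive DNA replication. Of 25 target genes tested, 0 were called in miR-23a KO (2 higher at an unadjusted p under 0.05 by edgeR, 0 by DESeq2). Among those called higher in miR-27a KO, RRM1, a subunit of ribonucleotide reductase, had a log2 fold change of 0.73 (SE 0.15, edgeR adjusted p = 0.0382) and MCM4, of the replicative helicase, 0.64 (SE 0.12, edgeR adjusted p = 0.031). CCNE1, the G1 cyclin E1, moved the other way, from 93.1 and 75.4 CPM in Scr to 43.6 and 48.9 (-0.88, SE 0.14, edgeR adjusted p = 0.022). The calls of RRM1 and MCM4 were lost without Scr replicate 1, without either miR-27a KO library and with the GC and length correction, and that of CCNE1 without either miR-27a KO library. The list's medians were 0.48 with miR-23a KO and 0.17 with miR-27a KO, above those of all genes. Above both Scr libraries lay 12 of 25 and 14 of 25 genes, against 9.91% and 33.4% of all genes. Both medians stayed above 0 under all 11 alternatives, but their size depended on single libraries. The first was 0.26 without miR-23a KO replicate 2. The second was 0.07 without Scr replicate 1 and 0.33 without Scr replicate 2.

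**Figure D5:**
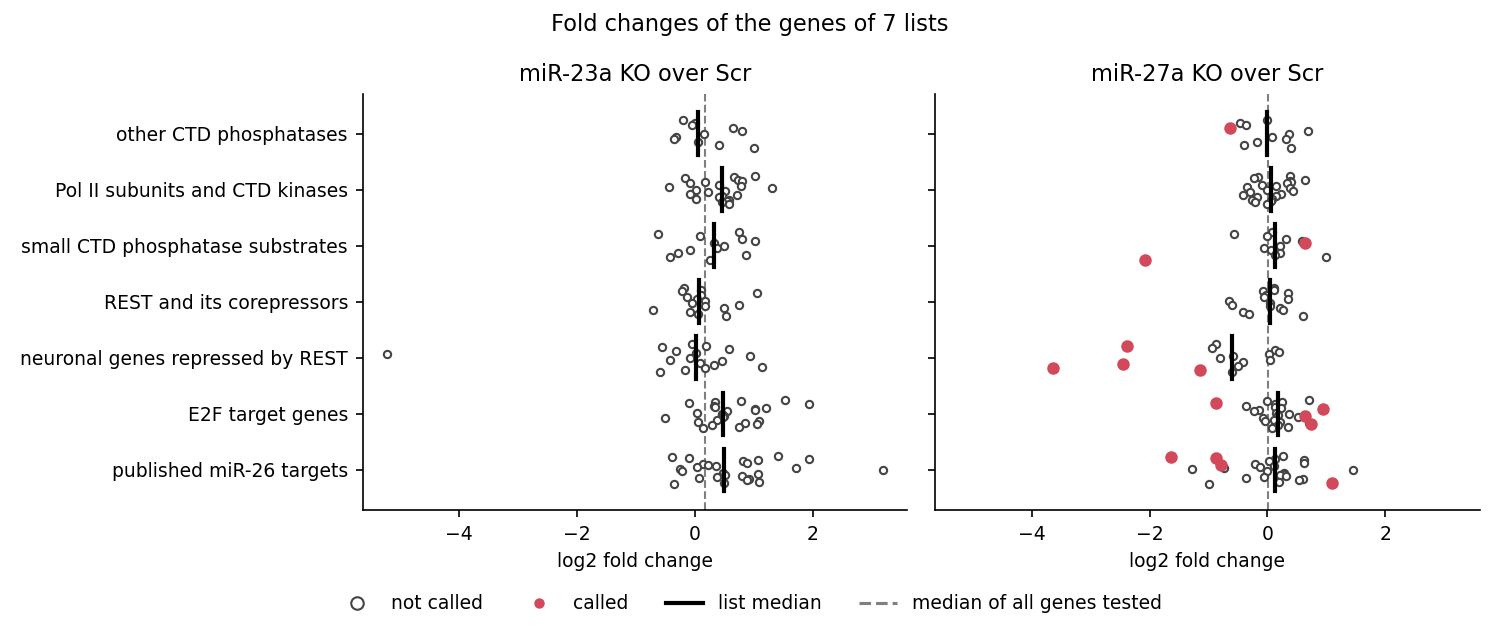
Log2 fold change (x axis, the same scale in both panels) of each tested gene of the 7 lists in each knockout against Scr; filled points were called, black bars are list medians and the dashed line is the median of all genes tested. The neuronal genes lie to the left in miR-27a KO, with a median of -0.61, and around 0 in miR-23a KO.

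Since 3 members host miR-26 hairpins, published targets of miR-26 were described too. Of 31 listed genes 27 were in the file and 26 were tested. In miR-23a KO 0 were called (2 higher at an unadjusted p under 0.05 by edgeR, 0 by DESeq2), and in miR-27a KO 1 was higher and 3 were lower, where 3.52% of all genes were higher and 6.74% lower. TET3, a DNA demethylase, held 17.6 and 19.9 CPM in Scr and 40.8 and 39.9 in miR-27a KO (1.09, SE 0.12, edgeR adjusted p = 0.011). CCND2, the cyclin D2 gene (-1.64, SE 0.3, edgeR adjusted p = 0.0297), HMGA1, a chromatin protein (-0.79, SE 0.16, edgeR adjusted p = 0.0366), and CCNE1 were lower. TET3 and CCND2 were called under 8 of 11 alternatives and HMGA1 under 4; none of the 3 was called without miR-27a KO replicate 1 or replicate 2, nor HMGA1 without Scr replicate 1. The medians were 0.49 with miR-23a KO and 0.12 with miR-27a KO; without miR-23a KO replicate 2 the first was -0.3, and the second was -0.11 without Scr replicate 1 and -0.12 with the GC and length correction, so neither kept its sign.

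The transcripts that hold a miR-26 match in the 3′-UTR were described in the same way. Their median log2 fold change was 0.27 with miR-23a KO and 0.13 with miR-27a KO, against 0.15 and -0.01 for genes with an annotated 3′-UTR that lacks it. The miR-23a-3p matches gave 0.23 and 0.13 against 0.15 and -0.02, and the miR-27a-3p matches 0.18 and 0.07 against 0.17 and -0.01. Each set has longer 3′-UTRs than its counterpart (medians 3005.5 against 1065 bases for miR-26). With the GC and length correction the medians in miR-27a KO were -0.02, -0.02 and -0.01 for miR-26, miR-23a-3p and miR-27a-3p, against 0 for each counterpart, and in miR-23a KO -0.03 for each, against 0.02, 0.03 and 0.02. Leaving out miR-23a KO replicate 2 gave -0.34, -0.35 and -0.29 there, against -0.01, 0.02 and -0.01, and leaving out its replicate 1 gave 0.53, 0.45 and 0.25 against -0.13, -0.16 and -0.12, so the direction depended on the library. The part of UTR length in these medians was not tested. The level of mature miR-26 in these cells was not analysed here, and the level of a host transcript is not a measure of it.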

How the data were processed

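RNA-seq of 6 HepG2 libraries was used, 2 in each of 3 groups, grouped by their titles. The submitters' processing notes name HISAT, StringTie, Cufflinks and GATK, with no version; the genome build and the strand setting of counting are not given in the sources used here. The deposited columns are named FPKM, but the deposited values were taken to be expected counts, because 42.6% to 51% of them are whole numbers and each library sums to 14405247 to 16515266. The labels do not state this, so every count and CPM here rests on that reading. They were rounded and tested with edgeR 4.0.16 (R 4.3.3; filterByExpr, TMM, quasi-likelihood), each pair of groups alone, with Benjamini-Hochberg adjustment over all genes tested. Of 20026 genes, 17914 (89.5%) were matched to GENCODE 29. The labels name a library kit without strand and the study's methods a stranded one, so whether reads of a gene and of its antisense partner were told apart is not known. Named genes were the 4 members, RB1, RBL1, RBL2, REST, SNAI1 and MYC, up to 4 genes of each list (those called against Scr by size, then the highest Scr level), the neighbours of CTDSPL and the 10 genes most like it. The members and lists were chosen with earlier results of these data known. The fold changes of the members, the counts of called genes and the list medians were recomputed with: DESeq2 1.42.0, median-ratio scaling, all genes with any count, 1 fit of all libraries, a replicate block, a loess correction for GC content and length (span 0.5, degree 2), the last 2 together, and each library left out in turn. The count of genes at least 10-fold lower had the alternatives that apply to it, and the neighbours and the likeness ranking had none. The test across genes was tested on simulated data.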

Additional observations from a re-analysis of the deposited data

Results flagged for a closer look

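SYP, the synaptic vesicle gene, lay on opposite sides of the control in the 2 knockout groups: both miR-23a KO libraries (36.2 and 12.8 CPM) were above both Scr libraries (11.7 and 10.6 CPM), and both miR-27a KO libraries (0.787 and 1.02 CPM) were below them. The log2 fold change between the knockout groups was 4.74, with an edgeR adjusted p of 0.118, which missed the threshold; the 2 comparisons share the Scr libraries. Of 13556 genes tested in both comparisons, 782 (5.77%) lay on opposite sides of Scr in this way, and SYP was the 1 case among the 54 named genes.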

How the results depend on the processing

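The values of the 4 genes depended mostly on single libraries. Leaving out 1 library at a time, with the lone library assumed to vary like the other group, gave these ranges for miR-23a KO over Scr, as log2 fold changes: -7.91 to -6.87 for CTDSPL, -0.34 to 1.51 for CTDSP1, -0.52 to 0.69 for CTDSP2 and 0.25 to 1.42 for CTDSPL2. In miR-27a KO over Scr they were -8.24 to -8.21 for CTDSPL and 0.15 to 1.41 for CTDSP2. Between the knockout groups they were -0.22 to 1.68 for CTDSP1, -1.08 to -0.49 for CTDSP2 and -0.26 to 0.86 for CTDSPL2. Both negative ends of CTDSP1 and CTDSPL2 have the opposite sign to the fit of all libraries (1.03 and 0.41), and the cause was not tested.

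With the GC and length correction, and with it and the replicate block together, CTDSPL2 had 0.33 and 0.34 with miR-23a KO and 0.27 and 0.28 with miR-27a KO, CTDSP1 0.07 and 0.08 in miR-27a KO, and CTDSPL -8.29 and -8.29 in miR-27a KO. DESeq2 gave -8.41 for CTDSPL there and no filter on low counts -8.21; its fitted values rest on 2 counts.

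Counts of called genes changed more. Leaving out 1 library gave 0 to 1697 higher and 4 to 933 lower with miR-23a KO (0 and 0 with all libraries), 82 to 1908 and 252 to 1808 with miR-27a KO (487 and 931), and 25 to 3584 and 47 to 3719 between the knockout groups (0 and 0). DESeq2 gave 4 and 59 in miR-23a KO, and 259 and 218 between the knockouts. With no filter, miR-23a KO had 10 lower and miR-27a KO 304 higher and 588 lower. A single fit gave 3 lower with miR-23a KO, 3 and 61 with miR-27a KO, and 109 and 109 between the knockouts. The replicate block gave 7 and 62 in miR-23a KO and 211 and 189 between the knockouts. The GC and length correction gave 2 lower in miR-23a KO and 132 and 159 between the knockouts, and with the replicate block 3 and 28, and 338 and 405. Genes at least 10-fold lower in every knockout library numbered 5, 64 with no filter and 8 to 17 without 1 library.

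Over all alternatives, 96 values of the 4 genes stayed within the replicate spread or 1.5-fold and 19 moved beyond it. A further 2 were labelled reversed and 4 stronger, each between the knockout groups with 1 miR-23a KO library left out. Of the counts 24 stayed and 51 moved, and of the list medians 215 stayed and 71 moved. With 2 libraries per group, which may be technical repeats of 1 clone, no setting separates an effect of the edit from a property of the clone.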

Other observations

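CTDSPL held whole numbers of counts in all 6 libraries, while CTDSP1, CTDSP2 and CTDSPL2 held fractions in each of them. Expected counts are fractions where reads were shared among several genes or transcripts.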
